A study of Mus musculus with 6 samples.

Results

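Hormone-sensing luminal epithelial cells of the mouse mammary gland were taken from 6 droplet single-cell RNA libraries by a rule on raw counts of unique molecular identifiers (UMIs, 1 per captured RNA molecule). Of 23835 cell barcodes, 22244 had 200 or more detected genes and under 10% mitochondrial UMIs. Of these kept cells, 10064 were called epithelial because they held at least 1 UMI of Epcam, an epithelial surface protein, and 0 of Ptprc, the pan-leukocyte marker. The 1405 members were the epithelial cells with at least 1 UMI of 3 or more of 7 marker genes, Prlr, Cited1, Tph1, Cxcl15, Ptn, Stc2 and R3hdml. The other 8659 epithelial cells, with 0 to 2 of these markers, served for comparison. The members were thus chosen by their UMIs of these 9 genes, so the levels of those genes and the contrast of members with other epithelial cells are given as a description without a test.

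All mice were female and of the C3TAG model, in which the C3(1) promoter drives the SV40 large T antigen on an FVB/NJ background. Cells of every state therefore carried the transgene, and there was no group without it. The Prepuberty libraries came from whole glands at 5 weeks, the DCIS (ductal carcinoma in situ) libraries from whole glands at 14 weeks, and the Tumor libraries from palpable tumours at more than 18 weeks, with 2 libraries a state. The sources used here do not say that the libraries of a state came from separate mice, so p-values measure the spread between these libraries, which may be technical. The study's methods describe another dissociation for the tumours, where the labels give the same digestion for glands and tumours. As the methods have it, state and dissociation cannot be told apart in a comparison with Tumor. They also describe a later library chemistry for Tumor 2 alone, so values without Tumor 2 compare libraries of 1 chemistry.

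Hormone-sensing luminal cells are the mature ductal cells that carry receptors for estrogen, progesterone and prolactin. They pass hormone signals on through paracrine ligands such as amphiregulin, Wnt4 and RANKL, which act on neighbouring epithelium and stroma. Prolactin acts through its receptor Prlr, the kinase Jak2 and the transcription factors Stat5a and Stat5b. Tph1 encodes the rate-limiting enzyme of serotonin synthesis outside the brain. The T antigen binds the RB and p53 tumour suppressor proteins.

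The windows upstream of Tph1 and R3hdml are shown because both genes were highest in the DCIS members, and those of Greb1, a classical estrogen receptor target, because its level relative to the other epithelial cells is a tested result below. The genes were matched by symbol to the RefSeq promoter table (build GRCm38.p6), and each line gives the 250 bases before an annotated start, 5′ to 3′ on the gene's strand. The Tph1 windows lie on the minus strand at chr7:46672538-46672787 and chr7:46667378-46667627. The R3hdml window lies on the plus strand at chr2:163492068-163492317, and the Greb1 windows on the minus strand at chr12:16800887-16801136 and chr12:16757240-16757489. Capitals mark GGTCA, the core motif of the estrogen response element, searched on both strands (TGACC on the other).
Tph1 window 1: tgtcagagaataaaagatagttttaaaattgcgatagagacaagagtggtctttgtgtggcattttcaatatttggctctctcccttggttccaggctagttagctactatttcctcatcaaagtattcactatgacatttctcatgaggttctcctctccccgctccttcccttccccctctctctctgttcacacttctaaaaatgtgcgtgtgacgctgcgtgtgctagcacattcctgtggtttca
Tph1 window 2: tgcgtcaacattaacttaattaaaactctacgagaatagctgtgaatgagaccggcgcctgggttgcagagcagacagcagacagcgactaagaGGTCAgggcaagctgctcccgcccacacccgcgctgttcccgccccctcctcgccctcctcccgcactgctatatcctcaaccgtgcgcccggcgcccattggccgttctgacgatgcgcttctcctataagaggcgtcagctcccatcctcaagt
R3hdml: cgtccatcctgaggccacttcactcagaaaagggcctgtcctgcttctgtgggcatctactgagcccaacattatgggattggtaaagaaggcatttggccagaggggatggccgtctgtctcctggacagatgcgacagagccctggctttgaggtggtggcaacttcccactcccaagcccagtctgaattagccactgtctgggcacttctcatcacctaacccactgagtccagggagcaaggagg
Greb1 window 1: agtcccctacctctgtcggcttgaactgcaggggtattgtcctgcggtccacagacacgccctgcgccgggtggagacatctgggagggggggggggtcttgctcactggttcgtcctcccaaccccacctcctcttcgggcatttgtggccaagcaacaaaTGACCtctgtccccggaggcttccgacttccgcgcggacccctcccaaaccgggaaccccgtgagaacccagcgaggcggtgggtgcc
Greb1 window 2: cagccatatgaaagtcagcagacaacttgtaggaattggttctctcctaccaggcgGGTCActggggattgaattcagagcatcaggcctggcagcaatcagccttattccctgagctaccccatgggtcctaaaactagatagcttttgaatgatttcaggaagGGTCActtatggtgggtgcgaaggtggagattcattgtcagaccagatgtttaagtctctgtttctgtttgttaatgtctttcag
Window 2 of Tph1 and window 1 of Greb1 held 1 copy of the motif each and window 2 of Greb1 held 2, and window 1 of Tph1 and the R3hdml window held none. This short motif is in 35.2% of the 32851 windows of the same length in the table, so a match describes the letters only.

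The number of members differed widely between libraries of 1 state. Prepuberty 1 held 553 members (12.6% of kept cells) and Prepuberty 2 held 50 (1.39%). DCIS 1 held 162 (5.11%) and DCIS 2 held 479 (12.0%), and Tumor 1 held 81 (1.81%) and Tumor 2 held 80 (3.07%). The 2 Prepuberty libraries were the highest and the lowest of all 6, and both Tumor libraries lay below both DCIS libraries. The mean share was 2.44% in Tumor against 8.54% in DCIS, a difference of -6.10 percentage points (exact permutation test over libraries, two-sided, p = 0.33, the smallest p that 2 against 2 libraries allow). The difference was -4.56 points for Tumor against Prepuberty and 1.55 points for DCIS against Prepuberty (exact permutation p = 1.0 for both). Both differences of Tumor turned with 2 or more markers, when its mean share of 12.4% lay 1.46 points above the 10.9% of DCIS and 4.46 points above Prepuberty. Leaving out 1 library turned the DCIS minus Prepuberty difference without Prepuberty 2 (-4.06 points) and without DCIS 2 (-1.88), the Tumor minus Prepuberty difference without Prepuberty 1 (1.05), and moved the Tumor minus DCIS difference to -2.67 points without DCIS 2 and -9.53 without DCIS 1. With 2 against 2 libraries this test cannot pass 0.05, and the ranges of Prepuberty and the other states overlap.

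The denominator and the depth moved these shares. Of epithelial cells, members made up 52.0% and 18.9% in Prepuberty, 9.34% and 28.1% in DCIS and 2.28% and 4.58% in Tumor, and the DCIS minus Prepuberty difference became -16.7 points. Members were deeper than the other epithelial cells in every library, with medians of 12380 to 32586 UMIs a cell against 6170 to 16343. With each cell thinned to 3000 UMIs, and shallower cells left out, the share was 7.92% and 0.396% in Prepuberty, 3.77% and 8.66% in DCIS, and 0.0763% (3 members) and 1.42% (32 members) in Tumor.

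**Figure D1:**
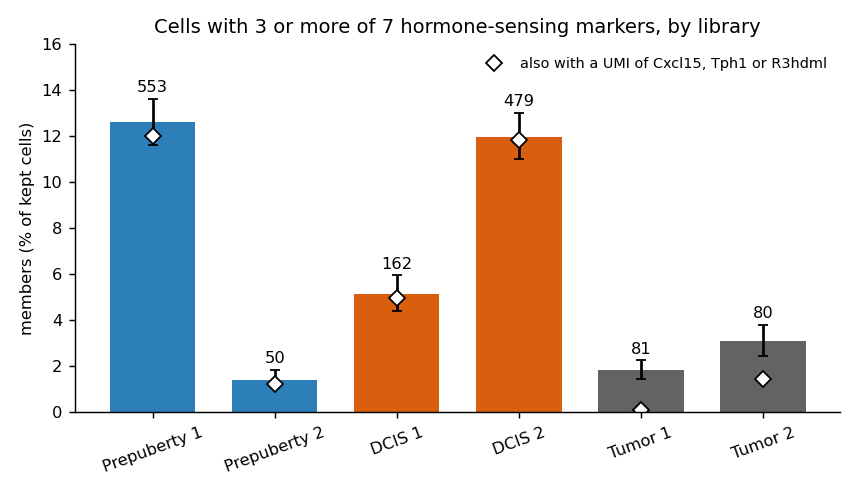
Members as a percentage of kept cells in each of the 6 libraries (bars, with exact Clopper-Pearson 95% intervals that cover counting error only), with the share of kept cells that were members and also held a UMI of Cxcl15, Tph1 or R3hdml (diamonds). The diamonds stay close to the bars in the 4 gland libraries and fall to 0.0894% in Tumor 1 and 1.42% in Tumor 2.

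The make-up of the markers changed with the state. Tph1 stood at 29.8 and 16.3 CPM (UMIs of the gene per 1000000 UMIs, over the summed members of a library) in Prepuberty, 631 and 376 in DCIS and 1.79 and 21.8 in Tumor. R3hdml stood at 19.3 and 5.22 CPM in Prepuberty, 159 and 113 in DCIS and 0 and 27.9 in Tumor. Both DCIS libraries lay above all others for these 2 genes. Cxcl15, which encodes a chemokine, stood at 353 and 93.3 CPM in Prepuberty, 315 and 303 in DCIS and 0.449 and 55.2 in Tumor. Prlr, the prolactin receptor, stood at 399.9 and 119 CPM, 166 and 189.7 and 73.1 and 495, with no order by state. Ptn, a heparin-binding growth factor, stood at 519 and 98.6 CPM, 765 and 1153 and 93.3 and 1424.

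The combinations of markers in single cells differed as well. All 7 markers were the commonest combination in DCIS, in 33 members of DCIS 1 (20.4%) and 112 of DCIS 2 (23.4%). In Prepuberty the commonest combination lacked Tph1 and R3hdml, in 135 members (24.4%) and 9 members (18.0%). In Tumor 1 it was Prlr, Ptn and Stc2 alone, in 59 of 81 members (72.8%), and the same 3 markers alone made up 25 of 80 (31.3%) in Tumor 2. Among the kept cells with a UMI of the fibroblast marker Pdgfra, the share with 3 or more of the markers was 0 to 0.336%.

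The label was met by the members of the 4 gland libraries, and not by those of Tumor 1 or by 43 of the 80 of Tumor 2 described below. Pgr, the progesterone receptor, which the rule did not use, stood at 136 and 126 CPM in Prepuberty, 47.9 and 67.8 in DCIS, 0 in Tumor 1 and 59.2 in Tumor 2. The Tumor 1 members held 0 Pgr UMIs, which allows up to 1.35 CPM. Foxa1, a pioneer factor for the estrogen receptor, stood at 42.2 and 12.4 CPM in Prepuberty, 34.6 and 24.0 in DCIS and 0.897 and 42.5 in Tumor. Esr1, the estrogen receptor, stood at 18.1 and 11.8 CPM, 12.2 and 17.1 and 0.897 and 27.3. Tumor 1 was the lowest library for all 3 genes. The T antigen stood at 209 CPM in the Tumor 1 members, beside 256 CPM in the other epithelial cells of that library, and at 0.653 to 16.1 CPM in the gland members. The 81 cells of Tumor 1 are called members by the rule only. Counts of genes called on Tumor, over all genes and over the main lists, are given with and without them.

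**Figure D2:**
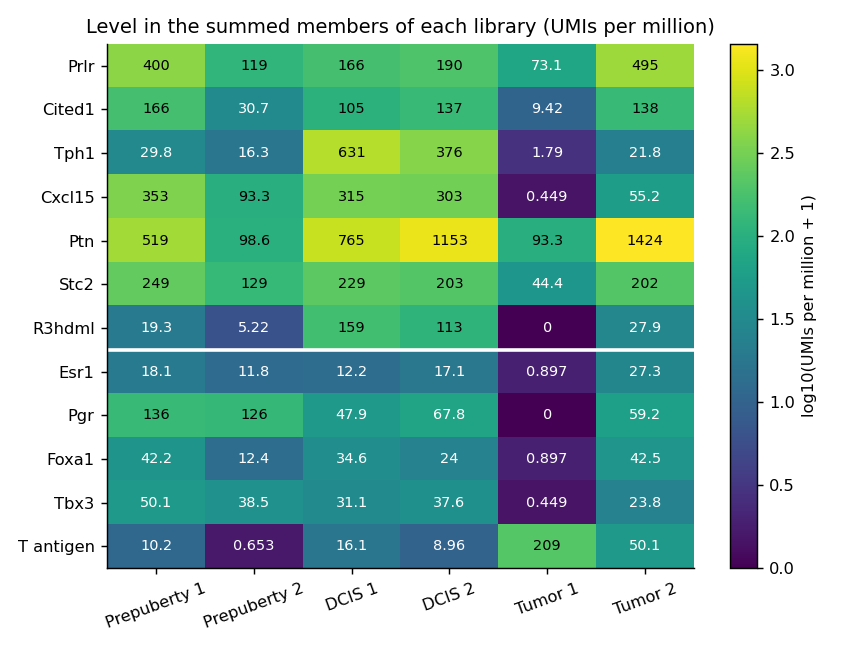
Level of the 7 markers of the rule (above the white line) and of 5 other genes in the summed members of each library, with CPM printed in each cell and log10(CPM + 1) as colour, to be read along each row. Tph1 and R3hdml are highest in the 2 DCIS columns, and the Tumor 1 column holds 0 for Pgr and R3hdml and the highest T antigen value, 209.

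Members of Tumor 2 differed by whether they held a UMI of Cxcl15, Tph1 or R3hdml. Of its 80 members, 37 had a UMI of Cxcl15, Tph1 or R3hdml and 43 had none, whereas 526 of 553 and 44 of 50 had one in Prepuberty, 157 of 162 and 473 of 479 in DCIS, and 4 of 81 in Tumor 1. This split was chosen after the values were seen and has no test. Pgr stood at 236 (195 to 283) CPM in the 37 cells (exact Poisson 95% interval in parentheses, here and below, for counting error only) and at 0.674 (0.0171 to 3.75) CPM in the 43. A Pgr UMI was found in 30 of the 37 cells, in 1 of the 43 and in 10 of 1666 other epithelial cells (0.60%), at median depths of 10612, 32165 and 16343 UMIs. The 43 cells gave 1484217 of the 1975128 UMIs of the Tumor 2 members, so the counts without Tumor 1 rest mostly on cells that did not meet the label. Esr1 stood at 106 (79.1 to 139) CPM against 1.35 (0.163 to 4.87), and Foxa1 at 167 (133 to 207) against 1.35 (0.163 to 4.87). Areg, which encodes amphiregulin, stood at 1241 (1144 to 1343) CPM against 35.7 (26.8 to 46.7). Krt19, a luminal keratin, stood at 2396 (2261 to 2536) CPM against 65.3 (53 to 79.7).

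The 43 cells without the 3 markers held more T antigen, Mki67 and Krt14 than the 37. T antigen stood at 57.9 (46.4 to 71.6) CPM in them, at 60.5 CPM in the other epithelial cells of Tumor 2 and at 26.5 (14.1 to 45.3) CPM in the 37. The proliferation gene Mki67 stood at 287 (260.4 to 316) CPM in the 43 against 42.8 (26.5 to 65.4) in the 37. Krt14, a basal keratin, stood at 1571 (1508 to 1636) CPM against 198 (160.2 to 241). The other epithelial cells of Tumor 2 held Mki67 at 243, Krt14 at 2116, Cdkn2a at 1870 and Areg at 84.8 CPM. Cdkn2a, which encodes the p16 and p19 inhibitors, stood at 2240 (2165 to 2318) CPM against 377 (324 to 435). A T antigen UMI was found in 4 of the 37 cells (10.8%), 29 of the 43 (67.4%) and 932 of 1666 other epithelial cells (55.9%), and in 7 of 234 leukocytes of Tumor 2 (2.99%; Ptprc present and Epcam absent, median 4239 UMIs a cell). A Cdkn2a UMI was found in 13 of the 37 (35.1%), all 43, 1569 of the 1666 (94.2%) and 37 of the 234 leukocytes (15.8%), which are shallower than the other classes. Scrublet called 54 of the 1405 members doublets, 5 in Tumor 1 and 4 in Tumor 2, and the part of doublets and of free RNA in the T antigen and Cdkn2a UMIs of the 37 cells was not tested.

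**Figure D3:**
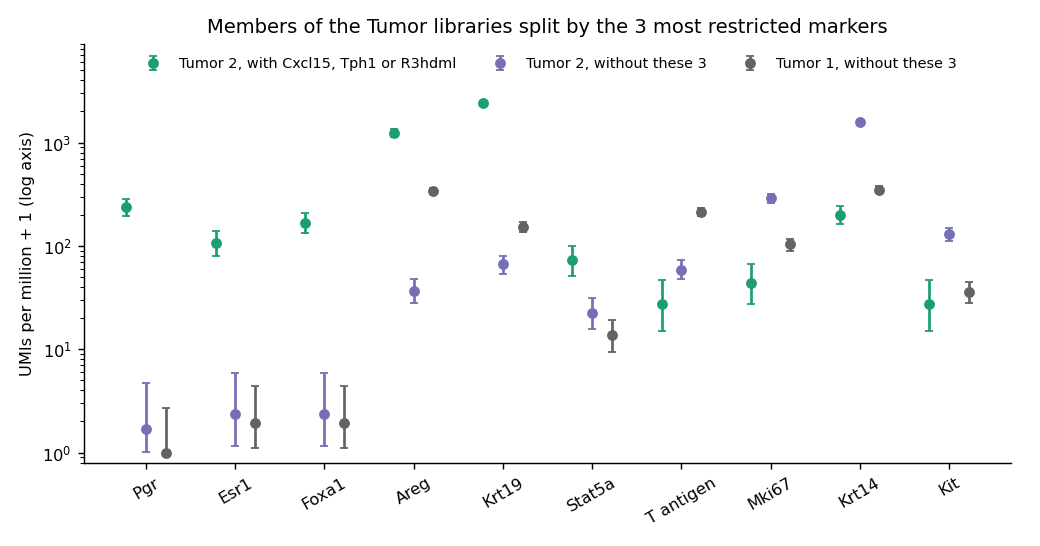
Level of 10 genes (CPM + 1, log axis) in the members of Tumor 2 with and without a UMI of Cxcl15, Tph1 or R3hdml, and in the members of Tumor 1 without one. Points are values of the summed cells of each class and bars are exact Poisson 95% intervals. Pgr, Esr1 and Foxa1 lie between 106 and 236 CPM in the first class and at 1.35 CPM or less in the others.

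At the border of the rule, cells with exactly 3 and exactly 2 markers had close levels of Pgr and T antigen in the tumours. Pgr was higher with 3 in the DCIS glands, from only 12 such cells in DCIS 1, and differed less in Prepuberty. Prepuberty cells with 2 markers, classed as other epithelial, had Pgr levels within or above those of the DCIS members. Hormone-sensing cells may thus remain among the other epithelial cells of Prepuberty, and their part in the shares and ratios was not tested. Pgr stood at 98.2 and 64.0 CPM with exactly 3 and exactly 2 markers in Prepuberty 1, 113 and 85.2 in Prepuberty 2, 11.3 and 2.18 in DCIS 1, 56.7 and 13.8 in DCIS 2, 0 and 0.219 in Tumor 1 and 4.05 and 2.75 in Tumor 2. T antigen stood at 205 and 201 CPM in Tumor 1 and 62.8 and 62.9 in Tumor 2. In Tumor 1, 73 of the 81 members had exactly 3 markers, in Tumor 2, 46 of the 80. A stricter rule of 4 or more markers left 460, 33, 150, 437, 8 and 34 members from Prepuberty 1 to Tumor 2, and its fits leave out Tumor 1, which has under 10, so that the 34 cells of Tumor 2 stand alone for Tumor. Several calls on Tumor were lost under it, and its values are given beside them.

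In the gland libraries the leading genes of the members included a hormone receptor, a pioneer factor and a paracrine ligand. Among 896 genes higher in members than in other epithelial cells in all 4 gland libraries and at 20 CPM or more in members, the 20 with the largest mean log2 ratio (1 CPM added) held Pgr (3.46), Foxa1 (3.15) and Areg (3.03). The list was headed by Fam25c (4.29), Tmem56 (3.85), Dgat2 (3.76), which encodes an enzyme of triglyceride synthesis, and Fgb (3.71), which encodes a fibrinogen chain. Slc5a5, the sodium-iodide symporter, had a mean log2 ratio of 3.42, and Msx2, a homeobox factor, one of 3.38. Across all 6 libraries 506 genes were higher in members, and 8 of the leading 20 were shared with the gland list. The restriction to the gland libraries was made after the values were seen. In Tumor 1 the log2 ratio was -0.18 for Pgr, -0.26 for Foxa1 and 0.81 for Tmem56, against 5.15, 5.19 and 5.63 in Tumor 2.

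Transcripts of other cell types were present in members and, for each of the 4 lists below, summed to less than in the other epithelial cells of the same library. The 6 fibroblast genes summed to 52.2 to 257 CPM in Prepuberty members, 183 to 263 in DCIS and 58.8 to 191 in Tumor, against 454 to 3114 in other epithelial cells over all libraries. The 5 endothelial genes summed to 32.5 to 43.1 CPM, 9.78 to 13.3 and 4.05 to 14.4, against 10.5 to 292. The 10 immune genes summed to 15.8 to 32.6 CPM, 46.6 to 49.6 and 16.2 to 66.4, with the T cell gene Cd3g at 0 in the members of all 6 libraries. The 10 myoepithelial genes summed to 206 to 752 CPM, 319 to 436 and 1139 to 1482, against 1405 to 4396. The part of other cells' RNA in the results below was not tested.

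Between Prepuberty and DCIS, no gene passed the threshold in members. edgeR's quasi-likelihood test on the summed members called 0 of 10633 genes at an adjusted p of 0.05 (0.0%), with 1116 at an unadjusted p under 0.05, while DESeq2 called 82 (0.771%; 64 higher and 18 lower). The 13 hormone receptor and cofactor genes tested had a median log2 change of -0.17, beside -0.03 over all genes. Pgr went from 136 and 126 CPM to 47.9 and 67.8, without overlap (log2 fold change -0.96 ± 1.10, SE, n = 2 libraries a state; adjusted p = 0.767 by edgeR). Igfbp5, which encodes an IGF-binding protein, went from 504 and 665 CPM to 23.1 and 83.2, also without overlap (-3.22 ± 0.60, adjusted p = 0.251 by edgeR). Areg went from 119.5 and 42.4 CPM to 225 and 136 (1.32 ± 0.52, adjusted p = 0.458 by edgeR). The Areg levels did not overlap either, and the differences of all 3 genes stayed short of the threshold. Under random labels, 2 against 2 libraries fail to overlap with a probability of 0.33, so absence of overlap is weak evidence. Igfbp5 was named outside the rules of selection given below.

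Milk protein and prolactin pathway transcripts were not called either. Csn2, beta-casein, stood at 19.1 and 1.31 CPM in Prepuberty members and 109 and 393 in DCIS members (4.55 ± 0.97, adjusted p = 0.293 by edgeR). The other epithelial cells of DCIS held it at 248 and 192 CPM, and the change of members differed from theirs by -0.36 ± 0.67 on the log2 scale (adjusted p = 0.89 by edgeR). Stat5a stood at 113 and 88.8 CPM in Prepuberty and 59.0 and 57.7 in DCIS (-0.59 ± 0.37, adjusted p = 0.591 by edgeR). The median log2 change was -0.03 for the 7 prolactin and STAT5 genes, -0.50 for 15 secretory genes and 0.58 for 24 proliferation genes.

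A few genes passed when Tumor libraries were left out. A fit of the 4 gland libraries alone called 7 of 11215 genes, all higher in DCIS (0.0624%), and the fits without Tumor 1 and without Tumor 2 called 11 and 7. Hspa1a, an inducible heat shock chaperone, stood at 23.7 and 39.2 CPM in Prepuberty members and 855 and 808 in DCIS members (4.99 ± 1.16; adjusted p = 0.318 with all libraries and 0.00486 with the gland libraries, both by edgeR). Its near-identical neighbour Hspa1b, whose reads the counting may split, had 4.05 ± 0.57, and the co-chaperone gene Dnajb1 2.54 ± 0.55. Pdk4, a kinase that restrains glucose oxidation, stood at 0.732 and 1.31 CPM against 35.3 and 21.3 (5.20 ± 0.60; adjusted p = 0.246 and 0.0234 in the same 2 edgeR fits). Hist1h1c, a linker histone gene, Kif5c, a kinesin gene, and 3110079O15Rik complete the 7. Of the alternatives, 6 called any gene, and all 6 called each of the 7 but Kif5c, which 5 called.

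The other epithelial cells were also higher in DCIS for Hspa1a and Pdk4. Hspa1a stood at 130.5 and 502 CPM in them in Prepuberty and at 1156 and 1333 in DCIS. Pdk4 stood at 3.77 and 6.76 CPM and 48.9 and 31.1. The change in members exceeded that of the other cells for Hspa1a (difference of log2 changes 2.51 ± 0.35, adjusted p = 0.0186 by edgeR; 2.76, adjusted p = 0.0837 without DCIS 2) and did not pass for Pdk4 (1.92 ± 0.47, adjusted p = 0.158).

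**Figure D4:**
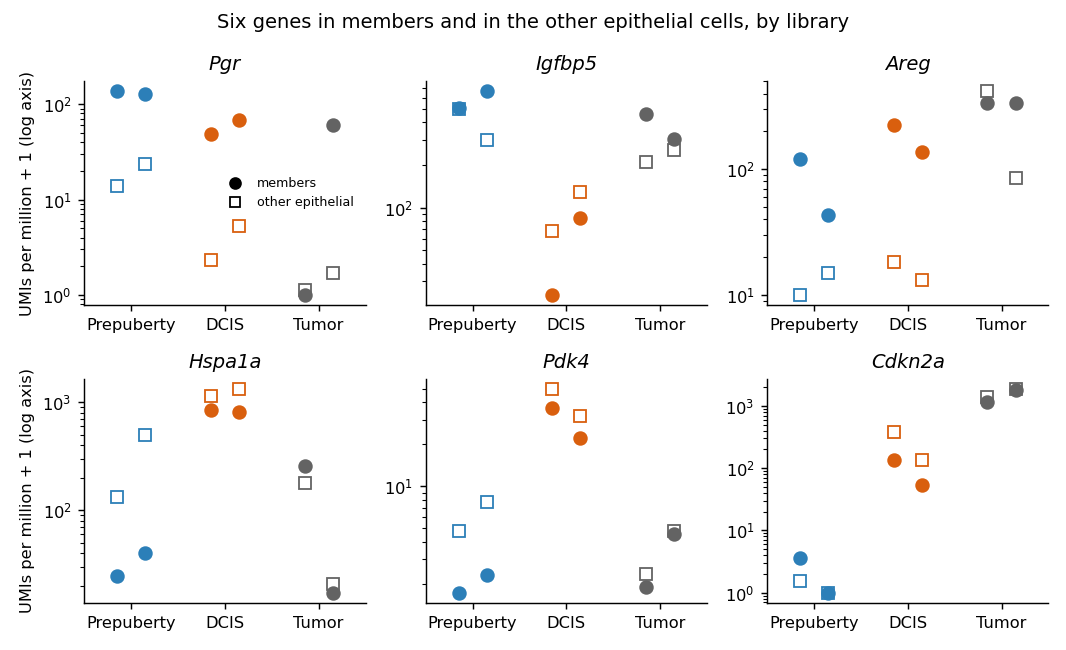
Level of 6 genes (CPM + 1, log axis) in the members (filled circles) and in the other epithelial cells (open squares) of each library, by state, 2 libraries a state. Pgr is higher in members than in other epithelial cells in every library but Tumor 1, and Hspa1a is highest in DCIS in both.

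The ratio of members to other epithelial cells within a library changed for 21 of 13433 genes between Prepuberty and DCIS (0.156%; edgeR quasi-likelihood test with library as a block), 19 of them toward members. Without the library block 0 genes passed by edgeR in this and in the comparisons with Tumor (285, 525 and 720 at an unadjusted p under 0.05), so the calls rest on the pairing of cell classes within libraries. Single libraries also set the count, which was 100 and 149 without Prepuberty 1 and 2, 7 and 3 without DCIS 1 and 2, and 36 and 40 without Tumor 1 and 2. Greb1 stood at 2.01 and 2.61 CPM in Prepuberty members and 5.74 and 3.64 in the other cells, and at 7.33 and 8.52 in DCIS members and 0.232 and 0.641 in the other cells (difference of log2 changes 5.53 ± 0.81, adjusted p = 0.024 by edgeR). It was the 1 gene called of 14 hormone receptor and cofactor genes, and its call was lost without Prepuberty 1 (4.82, adjusted p = 0.106 by edgeR) and without DCIS 2 (6.34, adjusted p = 0.123). Ptpn5, a tyrosine phosphatase gene, stood at 3.48 and 0 CPM in Prepuberty members and 18.9 and 17.5 in DCIS members. The other cells held 6.46 and 0.520 CPM in Prepuberty and 0.987 and 0.882 in DCIS (5.27 ± 0.62, adjusted p = 0.0104 by edgeR). Its call was lost without the same libraries, at differences of 10.26 without Prepuberty 1 and 5.36 without DCIS 2. Cdkn2a stood at 2.65 and 0 CPM in Prepuberty members and 135 and 52.5 in DCIS members, with 0.538 and 0 and 379 and 133 in the other cells (-3.64 ± 0.50, adjusted p = 0.0207). That difference was -1.25, adjusted p = 1 without Prepuberty 1 and -3.61, adjusted p = 0.072 without DCIS 2.

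Tumor members differed from DCIS members in 972 of 10633 genes (9.14%), 448 higher (4.21%) and 524 lower (4.93%). In the fit without DCIS 2, whose calls follow, many named genes kept log2 changes close to those with all libraries. Icam1 had -4.43, Krt8 -2.30 and Stat5b -2.24, beside -4.09, -2.24 and -2.22, while Acta2 had -3.16 beside -4.38. Without Tumor 1, with Tumor 2 alone assumed to vary like the other libraries, 2000 genes were called (17.3%), of which 857 were among the 972 in the same direction (88.2% of the 972). Without Tumor 2 the count was 1513 (13.4%), 750 of them among the 972. It was 110 and 148 without Prepuberty 1 and 2, 10 without DCIS 1 and 0 without DCIS 2 (1781 at an unadjusted p under 0.05 by edgeR), so leaving out 1 gland library took away most or all calls. Of the 53 genes named for this comparison, 49 kept their call without Tumor 1, 44 without Tumor 2 and 0 of 52 without DCIS 2, and none changed direction when a library was left out. With 4 or more markers, where Tumor 2 again stands alone and the other states supply the spread, 510 of 11285 genes were called (4.52%), and of 45 named genes tested 15 kept their call, 28 did not and 2 changed sign.

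Several keratin and inflammatory genes fell in Tumor members. Of 13 luminal keratin and junction genes 6 fell (7 without Tumor 1, 9 without Tumor 2 and 4 with 4 or more markers) and none rose (1 with 4 or more), with a median log2 change of -1.39 beside 0.08 over all genes. Krt8 stood at 2336 and 2265 CPM in DCIS and 845 and 563 in Tumor (-2.24 ± 0.37, adjusted p = 0.025 by edgeR; -1.47, adjusted p = 0.0372 with 4 or more markers). Krt18 stood at 4988 and 5814 CPM against 1647 and 792 (-2.65 ± 0.46, adjusted p = 0.0284; -2.04, adjusted p = 0.0221 with 4 or more). Krt8 and Krt18 form the keratin pair of simple epithelia, and both Tumor libraries lay below both DCIS libraries for each. In Tumor 2, the 37 members with Cxcl15, Tph1 or R3hdml held Krt8 at 1509 and Krt18 at 2271 CPM. The other 43 held 250 and 303 CPM, and this split has no test. Cldn4, a tight junction gene, fell by 2.75 on the log2 scale, with -1.86, adjusted p = 0.125 under the stricter rule.

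Of 20 NF-kB and acute phase genes 8 fell (16 without Tumor 1, 10 without Tumor 2 and 12 with 4 or more markers) and none rose, with a median of -2.80. Icam1, an adhesion molecule gene, stood at 134 and 83.9 CPM in DCIS and 6.28 and 13.2 in Tumor (-4.09 ± 0.42, adjusted p = 0.0133 by edgeR; -3.37, adjusted p = 0.0278 with 4 or more markers). F3, tissue factor, stood at 560.2 and 747 CPM against 106 and 106 (-3.18 ± 0.37, adjusted p = 0.0155; -2.02, adjusted p = 0.0332 with 4 or more). Birc3, an inhibitor of apoptosis gene, and the chemokine gene Ccl7 fell under both rules too. The study named Nfkbia, Cebpd, Ccl20, F3 and Icam1 of this list as high in DCIS cancer cells, and Ccl2, Ccl7 and Ccl20 in Prepuberty ones. It used the same libraries, so a fall of the list in Tumor against either state is not independent support. The other epithelial cells held Icam1 at 189 and 113 CPM in DCIS and 7.45 and 15.8 in Tumor, and the change of members did not differ detectably from theirs (-0.06 ± 0.27, adjusted p = 0.967 by edgeR). Saa1, a serum amyloid gene, had 3042 UMIs in DCIS members and 1 in Tumor members (ratio 1064, exact 95% counting interval 191 to 42050), and its call was lost without Tumor 2 and with 4 or more markers at fitted changes about as large or larger (-9.03, adjusted p = 0.0579 and -12.87, adjusted p = 0.163 by edgeR, beside -9.91).

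Of 7 prolactin and STAT5 genes Stat5a and Stat5b fell under the rule of 3 markers and none rose, with a median of -1.52. The number that fell was 5 without Tumor 1, 3 without Tumor 2 and 0 with 4 or more markers. Stat5a stood at 59.0 and 57.7 CPM in DCIS and 13.0 and 33.9 in Tumor (-1.93 ± 0.39, adjusted p = 0.0358 by edgeR). Its value was -1.52, adjusted p = 0.0229 without Tumor 1 and -0.49, adjusted p = 0.386 with 4 or more markers. Stat5b stood at 24.4 and 25.2 CPM against 6.28 and 9.62 (-2.22 ± 0.30, adjusted p = 0.0177), with -0.98, adjusted p = 0.165 under the stricter rule. In the 37 Tumor 2 members with Cxcl15, Tph1 or R3hdml, Stat5a stood at 71.3 (49.7 to 99.2) CPM, against 21.6 (14.8 to 30.4) in the other 43. Jak2 stood at 89.6 (65.1 to 120.3) CPM against 8.76 (4.66 to 15). Beside these, DCIS members stood at 36.7 and 42.7 CPM for Jak2, with no test of the split against DCIS.

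Of 13 hormone receptor and cofactor genes Nrip1, a nuclear receptor corepressor, rose and none fell. Of the 14 tested in the other fits, the number that fell was 1 without Tumor 1, 6 without Tumor 2 and 0 with 4 or more markers, and the 6 without Tumor 2 held Esr1, Pgr and Foxa1. Nrip1 stood at 37.0 and 54.6 CPM in DCIS and 182 and 198 in Tumor (1.49 ± 0.29, adjusted p = 0.0342 by edgeR; 2.26, adjusted p = 0.0215 with 4 or more markers). Pgr, Esr1 and Foxa1, for which the 2 Tumor libraries lay far apart, had -1.66 ± 1.16, -0.75 ± 0.90 and -1.10 ± 1.06 and did not pass. None of 4 paracrine ligands tested was called. Areg stood at 225 and 136 CPM in DCIS and 336 and 335 in Tumor, and Wnt4 at 14.3 and 17.3 against 11.7 and 41.5. Tnfsf11, which encodes RANKL, was at 0 in 4 libraries and reached 2.53 CPM in Tumor 2, too low to test. Of 8 serotonin genes beside Tph1, Maoa, which degrades serotonin, was the 1 tested, at 9.08 and 9.29 CPM against 2.69 and 11.1, and Ddc, the enzyme that follows Tph1, was at 0 in 5 libraries.

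Pdk4, counted among the 11 surface and identity genes, was lower in members than in the other epithelial cells of every gland library. Of these 11 genes Pdk4, Prom1, Cd24a and Wfdc2 fell. The number was 5 without Tumor 1, 7 without Tumor 2 and 0 with 4 or more markers, where Pdk4 had -2.44, adjusted p = 0.0765, Prom1 -0.57, adjusted p = 0.491 and Wfdc2 0.01, adjusted p = 0.991 by edgeR. Cd24a, a surface antigen gene, stood at 2993 and 2422 CPM in DCIS and 147 and 516 in Tumor (-3.67 ± 0.67, adjusted p = 0.0316 by edgeR; -2.11, adjusted p = 0.0926 with 4 or more markers). Of 15 secretory genes 4 fell (8 without Tumor 1, 4 without Tumor 2 and 5 with 4 or more markers, of 16). Csn2 had 3906 UMIs in DCIS members and 1 in Tumor members (ratio 1366, exact 95% counting interval 245 to 53990), and its call held without Tumor 1 and with 4 or more markers (adjusted p = 0.0191 and 0.0348 by edgeR). Krt14 rose among 7 myoepithelial genes, from 118 and 62.8 CPM to 362 and 1230 (2.51 ± 0.59, adjusted p = 0.0433), but not without Tumor 2 or with 4 or more markers (1.04, adjusted p = 0.175). Acta2, the smooth muscle actin of contractile cells, fell from 10.1 and 36.9 CPM to 2.24 and 1.01 (-4.38 ± 0.81, adjusted p = 0.0318; -3.15, adjusted p = 0.173 with 4 or more markers). The other epithelial cells held Acta2 at 554 and 1519 CPM in DCIS and 36.6 and 1.98 in Tumor. In Tumor 2, the 37 members with Cxcl15, Tph1 or R3hdml held Cd24a at 1027 and Wfdc2 at 1996 CPM. The other 43 held 348 and 477 CPM, again with no test of the split.

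Cdkn2a rose among 13 genes of the T antigen, RB and p53 list, and Pmaip1 and Bbc3, pro-apoptotic p53 targets, fell. With 4 or more markers Bbc3 kept its call (-4.55, adjusted p = 0.0308 by edgeR) and Pmaip1 did not (-1.88, adjusted p = 0.0851). Cdkn2a stood at 135 and 52.5 CPM in DCIS members and 1144 and 1777 in Tumor members (3.37 ± 0.67, adjusted p = 0.0346 by edgeR; 2.41, adjusted p = 0.0661 with 4 or more markers). T antigen stood at 16.1 and 8.96 CPM against 209 and 50.1, without overlap (2.93 ± 0.93, adjusted p = 0.0819). Of 24 proliferation genes Cenpe and Cenpf, which encode kinetochore proteins, rose (2.91 ± 0.60 and 2.08 ± 0.46), and 23 had a positive value, with a median of 0.90. The number that rose was 3 without Tumor 1, 4 without Tumor 2 and 0 with 4 or more markers.

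Acan, the proteoglycan aggrecan, had 338 UMIs in Tumor members and 0 in DCIS members, at least 322-fold higher against a floor of 3 UMIs over the state. Edil3, an extracellular matrix gene, was at least 67.7-fold higher. Ereg, an EGF family ligand gene, had 121 UMIs in Tumor members and 1 in DCIS members (ratio 346, exact 95% counting interval 60.9 to 13770). These 3 genes were called without Tumor 1 and did not enter the fit with 4 or more markers. Npy, neuropeptide Y, and Shox2, a homeobox gene, were also called with 4 or more markers (6.69, adjusted p = 0.0231 and 9.02, adjusted p = 0.00297), and Shox2 stood at 8.52 CPM in Tumor 1 and 504 in Tumor 2. In the other epithelial cells of those libraries it stood at 7.57 and 367 CPM. Among the genes that fell, Rnase1 was at least 12.2-fold lower, Fgl2 at least 9.56-fold, and the fractalkine receptor gene Cx3cr1 had 947 UMIs in DCIS members and 2 in Tumor members (ratio 166, exact 95% counting interval 45.7 to 1370). These 3 falls were called without Tumor 1 and not with 4 or more markers, where the fitted changes were about as large or larger (-8.41, adjusted p = 0.0531, -8.18, adjusted p = 0.112 and -11.35, adjusted p = 0.0556 by edgeR, beside -8.62, -8.23 and -7.48).

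**Figure D5:**
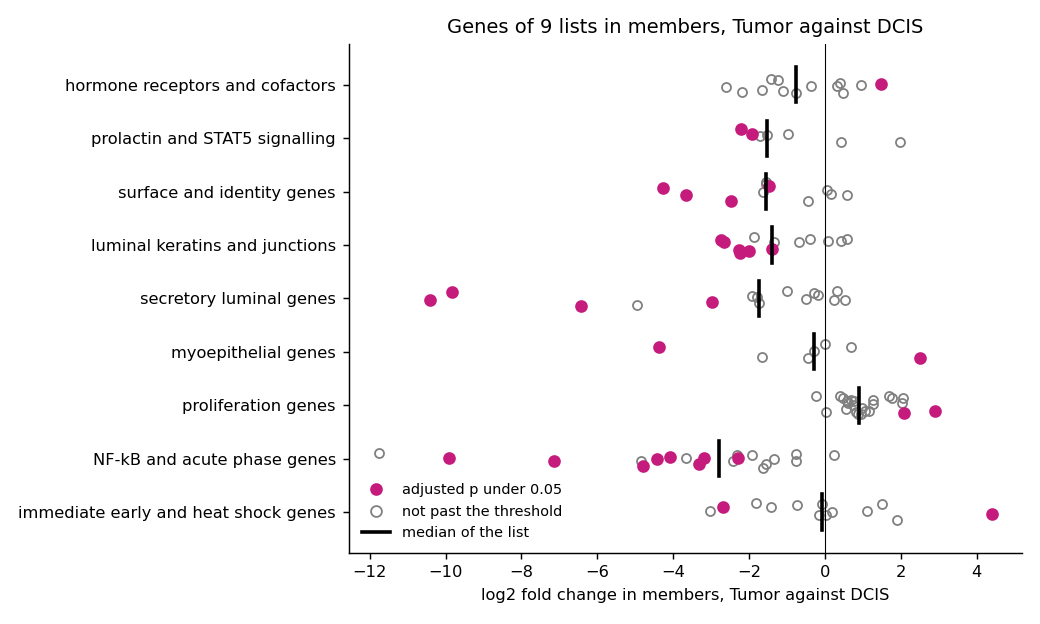
Log2 fold change in the members, Tumor against DCIS, of the tested genes of 9 lists, with genes past an adjusted p of 0.05 filled, others open and a black bar at the median of each list. Most luminal keratin (median -1.39) and NF-kB (median -2.80) genes lie left of 0, and 23 of the 24 proliferation genes lie right of it.

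Against Prepuberty members, Tumor members differed in 833 genes (7.83%), 437 higher (4.11%) and 396 lower (3.72%). The Tumor libraries are those of the comparison with DCIS, so the 2 sets of values are not independent. Without Tumor 1 the count was 1560, with 703 of the 833 called in the same direction (84.4%), and without Tumor 2 it was 1538. It was 160 and 156 without DCIS 1 and 2, and 0 without either Prepuberty library (2022 and 2443 at an unadjusted p under 0.05 by edgeR without Prepuberty 1 and 2). With 4 or more markers 91 genes were called (0.806%), and 6 of 44 named genes kept their call.

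Of 24 proliferation genes 9 rose (8 without Tumor 1, 11 without Tumor 2 and 0 with 4 or more markers) and none fell, with all 24 positive and a median of 1.71 beside 0.01 over all genes. Mcm3, a subunit of the replicative helicase, stood at 20.4 and 13.1 CPM in Prepuberty and 101 and 111 in Tumor (2.25 ± 0.31, adjusted p = 0.0174 by edgeR; 1.08, adjusted p = 0.324 with 4 or more markers). Tyms, thymidylate synthase, stood at 26.2 and 12.4 CPM against 115 and 133 (2.24 ± 0.38, adjusted p = 0.0244; 1.17, adjusted p = 0.252 with 4 or more). Mki67 stood at 57.0 and 16.3 CPM against 103 and 226 and did not pass (1.68 ± 0.57, adjusted p = 0.104). Cdkn2a passed under both rules, at 2.65 and 0 CPM in Prepuberty and 1144 and 1777 in Tumor (9.10 ± 0.90, adjusted p = 0.0148; 7.64, adjusted p = 0.0159 with 4 or more). Cdkn2c rose by 1.75 ± 0.34 and had -0.50, adjusted p = 0.656 with 4 or more markers, the opposite sign.

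Of the 7 prolactin pathway genes Jak2, Stat5a and Stat5b fell against Prepuberty (5 without Tumor 1, 3 without Tumor 2 and 0 with 4 or more markers). Jak2 stood at 61.5 and 69.2 CPM in Prepuberty and 8.52 and 28.9 in Tumor (-2.20 ± 0.44, adjusted p = 0.0326 by edgeR; -0.04, adjusted p = 0.957 with 4 or more). Of 4 paracrine ligands Wnt5a fell, from 63.3 and 92.7 CPM to 7.63 and 32.9 (-2.34 ± 0.52, adjusted p = 0.0394; -0.24, adjusted p = 0.74 with 4 or more). None of 13 hormone receptor and cofactor genes was called (of 14, the number that fell was 2 without Tumor 1, 5 without Tumor 2 and 0 with 4 or more markers), with a median of -0.57. Erbb3, a receptor partner of Erbb2, fell from 146 and 86.8 CPM to 31.4 and 53.2 (-1.86 ± 0.36, adjusted p = 0.0303; -0.58, adjusted p = 0.453 with 4 or more). Igfbp5 stood at 504 and 665 CPM against 462 and 303 (-0.91 ± 0.56, adjusted p = 0.319), with the DCIS members below both.

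Of 20 NF-kB and acute phase genes 8 fell against Prepuberty (15 without Tumor 1, 7 without Tumor 2 and 9 with 4 or more markers). Birc3 and Ccl7 also passed with 4 or more markers, and Icam1 and F3 did not (-2.15, adjusted p = 0.11 and -1.69, adjusted p = 0.08). Cd14, a bacterial sensor gene of the secretory list, fell by 3.51 on the log2 scale and by 4.15 under the stricter rule (adjusted p = 0.0209 and 0.0421 by edgeR). The endothelial gene Cldn5 was at least 15.5-fold lower and the pericyte gene Rgs5 at least 14.8-fold lower, and neither call held with 4 or more markers, though the fitted changes did not shrink (-8.95, adjusted p = 0.0995 and -8.53, adjusted p = 0.127 by edgeR, beside -8.90 and -8.51). Fitted changes of genes without UMIs in a state depend on the prior count. The summed endothelial genes of members moved with them as given above, and the part of other cells' RNA in these 2 falls was not tested.

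The ratio of members to other epithelial cells changed for 218 of 13433 genes between DCIS and Tumor (1.62%; 130 toward members, 0.968%, and 88 away, 0.655%) and for 388 between Prepuberty and Tumor (2.89%; 271 and 117). Without Tumor 1 the counts were 45 and 135, of which 35 and 103 were among the main calls, and without Tumor 2 they were 173 and 236. For DCIS against Tumor the count was 705 and 806 without Prepuberty 1 and 2, 148 without DCIS 1 and 20 without DCIS 2. For Prepuberty against Tumor it was 210 and 868 without Prepuberty 1 and 2, and 406 and 307 without DCIS 1 and 2. Areg stood at 336 and 335 CPM in members and 416 and 84.8 in the other cells of Tumor 1 and 2, and its ratio fell relative to DCIS (-3.03 ± 0.64, adjusted p = 0.0382 by edgeR). The call was lost without Tumor 1 (-1.86, adjusted p = 0.19) and with 4 or more markers (0.07, adjusted p = 1), and the log2 ratio was -0.31 in Tumor 1 and 1.97 in Tumor 2. The ratios of Krt8, Krt18 and Krt7 fell too (-1.62, -1.33 and -1.17). None of the 3 kept its call without Tumor 1 (-1.12, -0.76 and -1.05) or with 4 or more markers (0.22, 0.74 and 0.07). Without Tumor 2 their values were -2.15, -1.93 and -1.31. Of 10 myoepithelial genes the ratios of Mylk, Cnn1, Tagln and Trp63 rose (3.99, 4.39, 3.17 and 4.21). Mylk and Cnn1 kept their call without Tumor 1, Tagln without Tumor 2 and Mylk with 4 or more markers. Where calls were lost, Tagln had 2.74 and Trp63 4.18 without Tumor 1, and Mylk 3.24, Cnn1 3.52 and Trp63 4.73 without Tumor 2. With 4 or more markers Tagln had 3.57 and Trp63 2.27. For Cnn1, calponin, the members went from 1.75 and 3.93 CPM to 1.35 and 8.10 and the other cells from 48.8 and 174 to 3.87 and 10.8, and the sign turned with 4 or more markers (-4.16, adjusted p = 0.921 by edgeR). The contrast alone does not tell a change of the members from one of the other epithelial cells. For Cnn1 the levels of the members overlapped between DCIS and Tumor, while those of the other cells fell. Krt8 and Krt18 fell in the members themselves, as given above.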

How the data were processed

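Single-cell 3′ libraries were analysed from mammary glands and tumours of female C3TAG mice, 2 each for Prepuberty, DCIS and Tumor. The deposited values are raw UMI counts per gene and cell barcode, which the authors made with Cell Ranger (version 3.0.2 per the file headers) over 31055 features, the T antigen among them. The submitters' processing notes list mm10, STAR, SAMtools, Picard and Salmon without a role. The labels give a v2 kit and 1 digestion for all samples, while the study's methods give the v3 kit for Tumor 2 and another digestion for tumours. Kept cells held 29652183 to 60741860 UMIs a library, and no member barcode was shared between libraries.

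The members and gene lists were chosen with earlier results of these data known. Counts of the members, and of the other epithelial cells, were summed per library and tested with edgeR 4.0.16 (quasi-likelihood F test, TMM scaling, the filterByExpr filter on low counts, Benjamini-Hochberg threshold 0.05) in 1 fit of the 6 libraries with 3 residual degrees of freedom. The 9 genes of the rule stayed in the library sizes and were not tested. The difference between the changes of members and of other epithelial cells was an interaction term with library as a block. Log2 fold changes are given ± SE, and every adjusted p is from edgeR. The fits were also run on simulated sums, which drew members and other epithelial cells independently from the same means apart from genes changed on purpose. The pairing of both classes within libraries was thus not checked. Alternatives were DESeq2 1.42.0, other scaling, filters, libraries, marker thresholds, depth thinning and removal of doublets, which stayed in the main analysis and were called with Scrublet (scanpy 1.11.5) at 0.8% per 1000 barcodes. TMM scaling left the median log2 change of all genes at -0.029, 0.079 and 0.01 for DCIS against Prepuberty, Tumor against DCIS and Tumor against Prepuberty, against -0.242, 0.651 and 0.367 without scaling. The genes named were up to 4 called genes of each list with the smallest p, the 10 largest changes in each direction without overlap of libraries, and the 10 smallest p of the interaction. Receptor, prolactin, ligand, serotonin, secretory, myoepithelial and T antigen genes were described whatever their values.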

Additional observations from a re-analysis of the deposited data

Results flagged for a closer look

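The change between states was tested for a difference between members and other epithelial cells, and 21 genes passed for DCIS against Prepuberty, 218 for Tumor against DCIS and 388 for Tumor against Prepuberty (edgeR quasi-likelihood test with library as a block, adjusted p of 0.05). The values below are differences of log2 fold changes, members minus other epithelial cells, for the genes with the smallest p, and 0 genes passed in any of the 3 comparisons without the library block (285, 525 and 720 at an unadjusted p under 0.05).

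For DCIS against Prepuberty the difference was 2.13 for Lgals1, a galectin gene, 2.32 for Cav1, the main caveolae protein, 2.02 for Gsn, the actin-severing protein gelsolin, 3.29 for Dclk1, 5.27 for Ptpn5, 5.53 for Greb1 and 2.51 for Hspa1a. It was -2.74 for Espn, an actin-bundling protein gene, and -3.64 for Cdkn2a. The difference of 6.04 for Hba-a1, an alpha-globin gene shared with red blood cells and with a near-identical copy, is uncertain for that reason. All 10 passed with 4 or more markers, without Tumor 1 and without Tumor 2. Without Prepuberty 1 the calls of Ptpn5 (10.26), Hba-a1 (1.67), Cdkn2a (-1.25) and Greb1 (4.82) were lost. Without DCIS 2 only Lgals1 and Cav1 of the 10 kept theirs, though the other differences stayed close to the main values in size or larger. They were -2.53 for Espn, 3.42 for Dclk1, 5.36 for Ptpn5, 2.39 for Gsn and 2.76 for Hspa1a. Cdkn2a had -3.61, Greb1 6.34 and Hba-a1 5.62.

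For Tumor against DCIS the difference was 6.10 for Il17b, which was lost without Tumor 1 (4.64, adjusted p = 0.122), 2.49 for Sparc, 2.78 for Ptx3, 3.22 for Igfbp3, 4.39 for Cnn1, which was lost without Tumor 2 (3.52, adjusted p = 0.175), and 3.33 for 1500015O10Rik. It was -2.52 for Ecm1, -3.25 for Htra3, -2.19 for Gm14005 and -1.35 for S100a6. With 4 or more markers only Ecm1 and S100a6 of these 10 kept their call, and Sparc stood at 0.84, Igfbp3 at 0.26, Htra3 at -1.18, Gm14005 at -0.86, Ptx3 at 2.11 and Il17b at 5.25, while Cnn1 and 1500015O10Rik turned. Without DCIS 2 those 2 also lost their call (3.76 and 2.90, adjusted p = 0.0823 and 0.089 by edgeR). For Tumor against Prepuberty it was 2.76 for Lgals1, 6.76 for Il17b, 2.62 for Sparc, 3.76 for Mgp, 2.36 for Id3, 4.28 for Aebp1, 2.86 for Fbln2, 4.04 for Pla2g7, 3.66 for Dclk1 and 4.01 for Hdgfl3. With 4 or more markers only Id3, Aebp1 and Pla2g7 of these 10 kept their call, and Lgals1 stood at 0.84, Sparc at 0.69, Fbln2 at 0.16, Dclk1 at 2.32, Hdgfl3 at 2.41, Il17b at 5.79 and Mgp at -0.23. Pla2g7 lost its call without Prepuberty 1 (2.12, adjusted p = 0.206 by edgeR). Sparc, Mgp, Aebp1 and Fbln2 encode matrix proteins that fibroblasts also make, and the 6 fibroblast genes summed to 58.8 to 191 CPM in Tumor members against 454 to 3114 CPM in the other epithelial cells of all libraries. The part of fibroblast RNA in these differences was not tested.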

How the results depend on the processing

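Prepuberty 2, Tumor 1 and Tumor 2 hold 50, 81 and 80 members, and the permutation test over 2 against 2 libraries cannot go below 0.33. The share difference of DCIS against Prepuberty became -16.7 points over epithelial cells and ran from -4.06 to 7.15 points when a library was left out. With 2 or more markers the share of Tumor lay above DCIS by 1.46 points and above Prepuberty by 4.46 points, and leaving out a library gave -9.53 to -2.67 and -10.2 to 1.05 points.

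The counts of genes below are for DCIS against Prepuberty, Tumor against DCIS and Tumor against Prepuberty in turn. DESeq2 called 82, 1481 and 1310 genes, no filter on low counts gave 373, 2547 and 2351, the compared libraries alone gave 7, 315 and 206, and 4 or more markers gave 12, 510 and 91. With all sums thinned to the shallowest, 634 genes passed for the second comparison. Leaving out a library gave 0 to 11, 0 to 2000 and 0 to 1560 genes.

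For the difference between members and other epithelial cells, no filter gave 343, 794 and 1040 genes and no library block gave 0, 0 and 0. Other epithelial cells with 0 markers gave 11 genes for DCIS against Prepuberty, and 4 or more markers gave 111 there and 118 for Tumor against DCIS. Leaving out a library gave 3 to 149, 20 to 806 and 135 to 868 genes.

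Replicate numbers paired nothing known, and deviations of same-numbered libraries correlated at 0.219, -0.105 and 0.01 (Prepuberty with DCIS, Prepuberty with Tumor and DCIS with Tumor). With the replicate block 0, 775 and 583 genes were called in members, and 82, 364 and 562 for the difference between members and other epithelial cells.

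Named genes gave 132 results with 1742 alternative values, of which 1186 kept direction and call, 550 fell below the threshold and 6 turned, all 6 with 4 or more markers. These were Wfdc2 (0.01) and Igfbp4 (-6.70) for Tumor against DCIS, Cdkn2c (-0.50) for Tumor against Prepuberty, and the differences from other epithelial cells for Cnn1 (-4.16), 1500015O10Rik (-0.11) and Mgp (-0.23). None of the 6 turned when Tumor 1 alone was left out, and the cause was not tested.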
